A study of Mus musculus with 2 samples.

Results

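Of the 43346 genes with an Ensembl identifier in the gene tables of embryonic mouse lung, 8 are described here, namely the mesenchymal transcription factor genes Tcf21, Twist1, Twist2, Meox1, Meox2, Prrx1 and Osr1 and the long noncoding RNA gene Fendrr. They were chosen by name, matched through the gene identifier without its version, and have 15 of the 103639 transcripts in the transcript tables. Total RNA was sequenced from whole lung of healthy B6NCrl mouse embryos at embryonic day 15.5, with males and females pooled and no treatment named. The 2 libraries are a single group: replicate 1 came from 78 pooled embryos and replicate 2 from 62, so no condition was compared and the spread is that between pools. Genes received 39530296.9 estimated reads in replicate 1 and 35733530.1 in replicate 2. Whole lung holds mesenchyme, epithelium, endothelium and blood together, and in such bulk RNA fewer cells of a type and less RNA per cell cannot be told apart.

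As background, the mesenchyme of the lung surrounds the branching airway tree, exchanges signals with its epithelium and gives rise to fibroblasts, smooth muscle and pericytes. Tcf21, Twist1 and Twist2 are basic helix-loop-helix (bHLH) factors, which bind E-boxes in DNA as dimers with the widely expressed E proteins, while Id proteins bind the E proteins and keep them off DNA. Meox1, Meox2 and Prrx1 encode homeodomain proteins, and Osr1 encodes a zinc finger protein of the lateral and intermediate mesoderm. Fendrr is transcribed away from Foxf1, a forkhead gene of lung and gut mesenchyme, and its RNA binds the histone-modifying complexes PRC2 and TrxG/MLL.

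Several of these genes have a close relative with similar coding sequence. The most alike stretches of the coding sequences of Twist1 and Twist2 are shown because these genes encode nearly the same bHLH region. Over 90 bases, 82 were identical (91.1%), and the longest identical run between the whole coding sequences was 23 bases. Sequences are from the GENCODE M21 transcripts on GRCm38, 5′ to 3′ on the coding strand, at chr12:33958324-33958413 (plus strand) for Twist1 and chr1:91801835-91801924 (plus strand) for Twist2, and capitals mark the bases that differ.
Twist1-201: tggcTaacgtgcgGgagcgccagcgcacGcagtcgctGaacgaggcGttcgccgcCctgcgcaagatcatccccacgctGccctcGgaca
Twist2-201: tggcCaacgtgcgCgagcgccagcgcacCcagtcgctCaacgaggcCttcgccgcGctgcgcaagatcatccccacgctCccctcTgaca

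By the same measure, Prrx1 and its relative Prrx2 shared 75 of 90 bases (83.3%, longest run 19), and Osr1 and its relative Osr2 shared 80 of 90 (88.9%, longest run 23).

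Prrx1 has 3 coding transcripts in the tables that differ at the end of the protein, and the results on its transcripts turn on these ends. They share their first 599 coding bases. The last 30 shared bases are printed in lower case and each transcript's own coding end with its stop codon in capitals, on the minus strand of chromosome 1 (GENCODE M21, GRCm38). Prrx1-201 encodes the longer protein form of 245 codons, which carries the OAR domain at its end, Prrx1-202 a shorter form of 217 codons, and Prrx1-204 one of 200 codons.
Prrx1-201: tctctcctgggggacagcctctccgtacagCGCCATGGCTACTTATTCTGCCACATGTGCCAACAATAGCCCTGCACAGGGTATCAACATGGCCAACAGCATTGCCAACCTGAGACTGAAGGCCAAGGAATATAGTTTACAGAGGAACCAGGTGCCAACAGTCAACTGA
Prrx1-202: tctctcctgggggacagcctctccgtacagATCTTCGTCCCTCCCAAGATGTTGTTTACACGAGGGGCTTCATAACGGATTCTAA
Prrx1-204: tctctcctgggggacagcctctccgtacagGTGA

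The promoter of Fendrr is printed because some of its annotated transcripts start there or close to it, beside Foxf1, while another is annotated to start far downstream. The window runs over chr8:121083061-121083360 on the minus strand (RefSeq, GRCm38.p6), with 250 bases before the annotated start in lower case and the first 50 transcribed bases in capitals.
Fendrr promoter: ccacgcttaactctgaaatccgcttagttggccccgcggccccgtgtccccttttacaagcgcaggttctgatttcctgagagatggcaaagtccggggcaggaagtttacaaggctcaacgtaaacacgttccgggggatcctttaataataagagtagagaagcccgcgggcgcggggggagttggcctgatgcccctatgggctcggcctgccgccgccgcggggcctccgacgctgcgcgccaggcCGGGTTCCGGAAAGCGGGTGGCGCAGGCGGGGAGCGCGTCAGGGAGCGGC
This window had a GC content of 64.7% and 31 CpG pairs, against medians of 52.7% and 7 over the 32851 RefSeq promoters of the same length. RefSeq windows were matched for 6 of the 8 genes: Tcf21 (53.3% GC, 8 CpG), Meox2 (60.7%, 12), Twist1 (66.0%, 27), Twist2 (64.7%, 25), Prrx1 (47.7%, 6) and Fendrr. Meox1 and Osr1 had none. Searched on both strands, the E-box CANNTG was in 1 of the 6 windows, that of Meox2, and in 72.3% of all promoters. The homeodomain core TAAT was in 4 of the 6, with 4 matches in Prrx1, 2 in Fendrr and 1 each in Meox2 and Twist2, and in 58.0% of all promoters. TATAAA was in the windows of Meox2 and Twist1 and in 13.6% of all promoters. The motifs were counted separately, a TAAT may overlap a TATAAA, and a match describes letters, not a bound site.

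Levels are given in TPM (transcript levels per length, scaled to a fixed total), and can be set side by side between genes. Each is followed by the interval deposited with it, whose level is not stated and which surrounds a posterior mean, so that a TPM can sit at its upper edge. Tcf21 stood far above the other genes. Fendrr and Meox2 followed, then Osr1, then a group of Prrx1, Meox1 and Twist2 close together, with Twist1 last. With 1 TPM in both libraries as the minimum for detection, 7 of the 8 genes were detected, where 33.6% of all 43346 genes were. Among the 21474 protein-coding genes, the class of every member but Fendrr, 13032 were detected. The sum of all 8 was 357 TPM in replicate 1 and 335 TPM in replicate 2, and Tcf21 alone held 69.9% and 70.4% of it. The median over the 8 genes, Twist1 included, was 12.1 and 12.8 TPM. Osr1, the middle one of the 7 detected genes, stood at 15.3 and 16.0 TPM, beside medians of 17.6 and 16.7 TPM over the 14583 genes detected in both libraries.

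**Figure D1:**
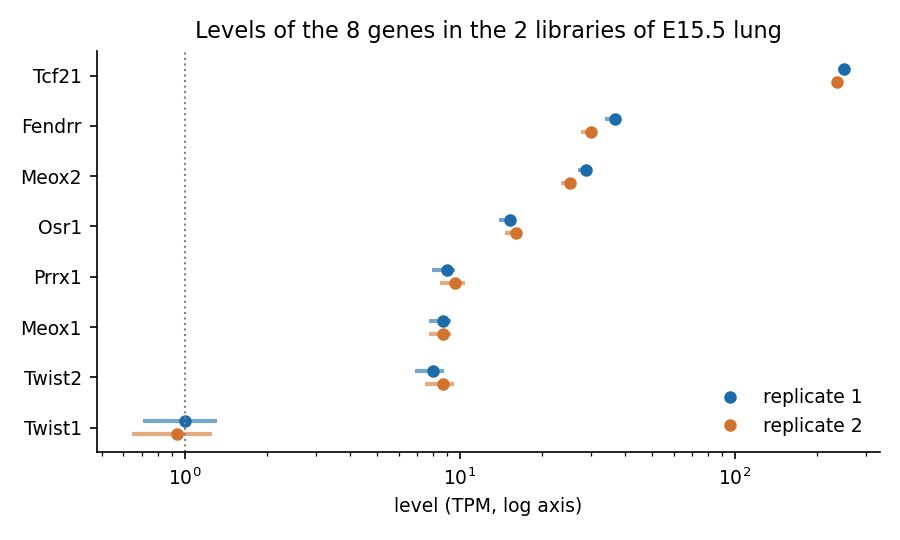
Level of each of the 8 genes in TPM on a log axis, with a point for each library and a line for its deposited interval, and the detection minimum of 1 TPM dotted. Tcf21 lies near 242 TPM, Twist1 at the minimum, and the points of Prrx1, Meox1 and Twist2 share a range from 7.98 to 9.65 TPM.

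Among the bHLH genes, Tcf21 (ENSMUSG00000045680.7, chromosome 10, 22817281 to 22820174, minus strand) encodes a factor that the lung, kidney and epicardium need during development, and mice without it die at birth with lungs that lack alveoli. Its level was 249 TPM (238 to 250) in replicate 1 and 236 TPM (225 to 236) in replicate 2, from 7417 and 6515 reads. The mean of 242 ± 9.74 TPM (SD, n = 2) ranked 581 among the 21474 protein-coding genes. The gene has a single transcript in the tables, of 179 codons, and the antisense gene Gm10824 that spans it was not analysed here.

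Twist2 (ENSMUSG00000007805.4, chromosome 1, 91801461 to 91848028, plus strand), also called Dermo1, is active in dermis and other mesenchyme, and its Cre driver is widely used to recombine genes in lung mesenchyme. It stood at 7.98 TPM (6.89 to 8.81) and 8.69 TPM (7.51 to 9.58), a mean of 8.34 ± 0.502 TPM (n = 2). Reads were 263.38 and 268.41, the only fractional totals among the 8 genes, since the other 7 had whole numbers within 0.005 of a read in both libraries. Its exons overlap those of Gm29100 over 1477 bases, an antisense gene at 0.180 and 0.150 TPM. The reads of Twist2 and Gm29100 together came to a whole 284 in each library, so the division between these genes was estimated. Of the gene's level, 98.5% and 97.9% was given to Twist2-201, the spliced transcript, and the rest to the unspliced Twist2-202, which encodes the same number of codons (160).

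Twist1 (ENSMUSG00000035799.5, chromosome 12, 33957671 to 33959829, plus strand), a gene of neural crest, cranial and limb mesenchyme, was the lowest member. It had 40.0 reads in replicate 1 (95% exact Poisson interval 28.6 to 54.5) and 35.0 in replicate 2 (24.4 to 48.7). These gave 1.00 TPM (0.706 to 1.31) and 0.940 TPM (0.645 to 1.26), so that it met the detection minimum in replicate 1 and missed it in replicate 2. Both values lie within the other library's interval, and the depth does not place the gene above or below 1 TPM. The read totals of Twist1 had no fractional part, although its coding sequence shares the stretch printed above with Twist2.

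Within each library Twist2 was above Twist1, with ratios of 7.98 and 9.24 (8.61 ± 0.894, n = 2). Counting alone gave intervals of 5.70 to 11.4 and 6.47 to 13.5 for these ratios, which overlap, and the deposited intervals of the genes overlapped in neither library. Twist2 thus stood several times above Twist1 in both pools. Of 12 other bHLH, Prrx and Osr relatives, 4 were detected in both libraries, and the median over the 12 was 0.605 and 0.355 TPM. Scx, a gene of tendon progenitors, was the highest at 19.4 and 19.5 TPM, above Twist2 and below Tcf21. Mesp1 and Ferd3l had no reads in either library, which allows up to 0.0964 and 0.104 TPM for Mesp1 and up to 0.144 and 0.155 TPM for Ferd3l, from 3 reads and counting error only. Msc was at 1.53 and 0.540 TPM and Hand2 at 0.740 and 0.310 TPM, the relatives of the list that were at least 2-fold higher in replicate 1. Reads were few, 60.0 and 21.7 for Msc and 42.0 and 16.1 for Hand2. The scaled log2 ratio of replicate 2 over replicate 1 was -1.43 for Msc and -1.18 for Hand2. Among genes of like level its 5th percentile was -1.221 for Msc and -1.277 for Hand2, so Hand2 lay within that spread.

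The dimer partners of Tcf21, Twist1 and Twist2 and the Id inhibitors were all detected, 7 of 7, with medians of 107 and 103 TPM. Among them Id3 was the highest, at 447 TPM (431 to 446) in replicate 1 and 417 TPM (400 to 416) in replicate 2, above Tcf21 in both libraries. Id4 was the lowest, at 12.4 and 13.6 TPM, above Twist2. The E protein gene Tcf3, named here after its value was seen, stood at 107 and 103 TPM, below Tcf21 and above Twist1 and Twist2 in both libraries.

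Among the homeobox genes, Meox2 (ENSMUSG00000036144.6, chromosome 12, 37108540 to 37179534, plus strand) takes part in limb muscle and vascular development. It stood at 28.9 TPM (27.0 to 29.7) and 25.1 TPM (23.3 to 25.9), from 1731 and 1399 reads, a mean of 27.0 ± 2.67 TPM (n = 2). Its relative Meox1 (ENSMUSG00000001493.9, chromosome 11, 101877510 to 101894374, minus strand), which acts with it in the somites, stood at 8.70 TPM (7.77 to 9.28) and 8.73 TPM (7.76 to 9.32), from 490 and 457 reads, a mean of 8.71 ± 0.0212 TPM. Meox2 was above Meox1 in both libraries, 3.33-fold and 2.88-fold (3.10 ± 0.314, n = 2), with no overlap of the deposited intervals. Each gene has a single transcript in the tables. The antisense gene Gm11551 in the span of Meox1 was at 0 and 0.260 TPM, from 0 and 2.00 reads, and shares no exonic bases with it.

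Prrx1 (ENSMUSG00000026586.12, chromosome 1, 163245119 to 163313710, minus strand) is a gene of limb and craniofacial mesenchyme that also acts in lung vessels. Its level was 8.98 TPM (7.92 to 9.65) in replicate 1 and 9.65 TPM (8.49 to 10.5) in replicate 2, a mean of 9.32 ± 0.474 TPM (n = 2). Prrx2, its closest relative, was at 10.6 TPM (8.79 to 12.9) and 8.19 TPM (7.18 to 10.6). The order of the pair therefore differed between the libraries, with Prrx1 over Prrx2 at 0.848 (0.738 to 0.977 from counting) and 1.18 (1.01 to 1.38), a mean of 1.01 ± 0.234, and the deposited intervals overlapped in both. Reads were 952 and 819 for Prrx1 and 257 and 214 for Prrx2. The effective length by which they are divided went from 4007 to 3448 bases for Prrx1 and from 917 to 1062 bases for Prrx2, and without that division replicate 2 over replicate 1 gave a log2 ratio of -0.04 for Prrx1 and -0.09 for Prrx2, so the change of order rests on it.

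Osr1 (ENSMUSG00000048387.7, chromosome 12, 9570116 to 9581500, plus strand) is needed for kidney and heart formation, and in frog embryos the osr genes are needed for lung specification. It was at 15.3 TPM (13.9 to 16.0) and 16.0 TPM (14.6 to 16.8), from 772 and 752 reads, a mean of 15.6 ± 0.516 TPM (n = 2). Osr2, its relative, was at 4.05 TPM (3.42 to 4.59) and 3.03 TPM (2.48 to 3.54). Osr1 was above it 3.77-fold and 5.28-fold (4.53 ± 1.07), with the deposited intervals overlapping in neither library.

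**Figure D2:**
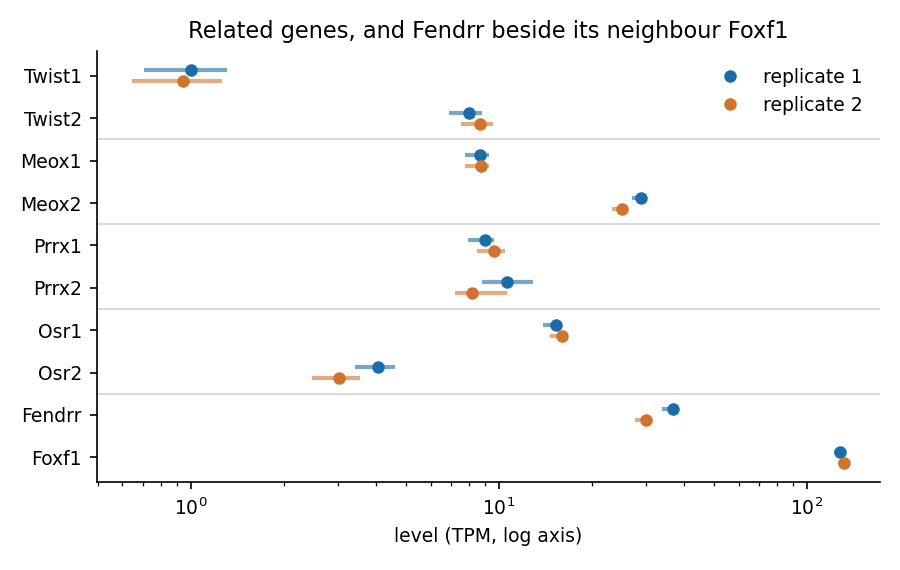
Level in TPM (log axis) of the Twist, Meox, Prrx and Osr genes in pairs of relatives, and of Fendrr beside Foxf1, with a point for each library and a line for its deposited interval. Twist2 lies to the right of Twist1, Meox2 of Meox1 and Osr1 of Osr2 in both libraries, while Prrx1 and Prrx2 change order.

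Placed in order of mean level, the 8 genes form 7 neighbouring pairs. In 5 of them the order held in each library with no overlap of the deposited intervals, and intervals of counting alone also separated 5. The pairs that did not differ beyond their intervals were Prrx1 with Meox1 (mean ratio 1.07) and Meox1 with Twist2 (1.05). The step from Tcf21 to Fendrr was 7.34-fold and that from Twist2 to Twist1 8.61-fold, while Fendrr exceeded Meox2 1.23-fold, Meox2 exceeded Osr1 1.73-fold and Osr1 exceeded Prrx1 1.68-fold. No gene could be ranked by likeness of pattern to these, since 2 libraries of 1 group give no pattern across conditions.

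Fendrr (ENSMUSG00000097336.4, chromosome 8, 121054882 to 121083110, minus strand) is needed in the mouse embryo for the heart and the ventral body wall, and its mutants also have lung defects. Its level was 36.6 TPM (33.9 to 37.8) in replicate 1 and 30.0 TPM (27.6 to 31.2) in replicate 2, from 1588 and 1252 reads. The mean of 33.3 ± 4.65 TPM (n = 2) ranked 43 among the 6853 long noncoding RNA genes, of which 776 were detected in both libraries. Foxf1, the neighbour transcribed in the opposite direction, was at 128 TPM (122 to 128) and 132 TPM (126 to 132). Their annotated starts are 1276 bases apart on opposite strands.

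Foxf1 exceeded Fendrr 3.50-fold in replicate 1 (3.31 to 3.69 from counting) and 4.40-fold in replicate 2 (4.14 to 4.67), a mean of 3.95 ± 0.635 (n = 2). Foxf1 was the higher gene in both libraries, and the ratio differed between them beyond counting error, with Fendrr lower and Foxf1 slightly higher in replicate 2. All 5 genes listed as neighbours of Fendrr on the chromosome were detected, with medians of 16.3 and 13.7 TPM. Foxf1 was the highest of them and Foxc2, a forkhead gene of the same cluster, the lowest at 1.74 and 1.90 TPM, below Fendrr. Mthfsd, 8518 bases from Fendrr on its strand, was at 47.9 and 46.3 TPM. Gm20388, a gene model that spans the locus on the opposite strand without sharing exonic bases with Fendrr, was at 6.01 TPM in replicate 1 and 0.0700 TPM in replicate 2, from 613 and 6.38 reads. The part of Gm20388 in the Fendrr values was not tested.

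The genes of the histone-modifying complexes that Fendrr binds were all detected, 12 of 12, with medians of 46.5 and 47.3 TPM, above the level of Fendrr. Rbbp7, a histone-binding subunit, was the highest at 470 and 464 TPM, and Kmt2a, a histone methyltransferase of the MLL complex, the lowest at 8.67 and 7.91 TPM, below Fendrr. Of 6 genes known to change in mouse embryos without Fendrr, 6 were detected, with medians of 25.7 and 25.5 TPM. Nkx2-5, a heart factor, was the lowest of these at 3.92 and 2.02 TPM.

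The transcript tables divide Fendrr over 3 transcripts, and its levels differed most in the one that starts away from Foxf1. Fendrr-201 starts 22697 bases downstream of the gene's start and stood at 18.3 TPM (16.2 to 19.7) in replicate 1 and 13.7 TPM (11.9 to 15.1) in replicate 2. It was 1.33-fold higher in replicate 1, and its intervals did not overlap, before or after scaling between libraries (log2 ratio -0.34 after scaling). It held 50.0% and 45.7% of the gene, a mean share of 47.9 ± 3.04% (n = 2), and has 316 bases in no other transcript of the gene.

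Fendrr-203 and Fendrr-202 start beside Foxf1, Fendrr-203 within the sequence printed above and Fendrr-202 78 bases downstream of the gene's start, past its end. Fendrr-202 was at 12.0 TPM (10.7 to 12.7) and 10.5 TPM (9.24 to 11.3), and Fendrr-203 at 6.31 TPM (5.35 to 7.06) and 5.78 TPM (4.81 to 6.59). The intervals of each overlapped between the libraries. Together they came to 18.3 and 16.3 TPM, which is 50.0% and 54.3% of Fendrr. About as much of the gene's TPM was thus assigned to the transcript with the internal start as to those beside Foxf1, in both libraries. This does not hold for estimated reads, which were 481 and 335 for Fendrr-201, 722 and 588 for Fendrr-202 and 386 and 329 for Fendrr-203. Fendrr-201 is 1092 bases long, against 2380 for Fendrr-202 and 2410 for Fendrr-203, and TPM divides reads by effective length. The starts are those of the annotation and were not measured. Shares of transcripts are estimates from shared reads, and the difference in share between the libraries was not tested.

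Prrx1 was divided over 5 transcripts, and the one with the highest TPM was not the same in both libraries. Prrx1-201, which ends with the longer coding end printed above, stood at 3.45 TPM (2.56 to 3.64) and 2.67 TPM (2.02 to 2.90), or 38.4% and 27.7% of the gene. Prrx1-205, a noncoding transcript that starts 24486 bases into the gene and lacks the first coding exon, stood at 3.06 TPM (2.05 to 3.83) and 4.68 TPM (3.57 to 5.60), or 34.1% and 48.5%. By TPM the leading transcript was Prrx1-201 in replicate 1 and Prrx1-205 in replicate 2, and the intervals of each overlapped between libraries. Within replicate 1 the intervals of Prrx1-201 and Prrx1-205 overlapped, so which of them led there is not resolved. Within replicate 2 they did not overlap. Prrx1-205 received few of the estimated reads, 100 and 142, against 443 and 319 for Prrx1-201 and 403 and 354 for Prrx1-204. It is 1335 bases long and Prrx1-201 is 4952, and TPM divides reads by effective length. The mean share of Prrx1-205 in the gene's TPM was 41.3 ± 10.2% (n = 2), and it has 85 bases in no other transcript of the gene.

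Prrx1-204, with the shortest coding end, was at 2.37 TPM (2.08 to 2.58) and 2.24 TPM (1.94 to 2.44), and has 4823 bases of its own, more than any of the other 4. Prrx1-202, the 217-codon form, was listed at 0 in both libraries, with posterior means of 0.300 and 0.180 TPM and intervals that reach 0.742 and 0.487 TPM. It has no base that the others lack, and the 72-base exon that gives it its coding end is also in Prrx1-205. The retained-intron transcript Prrx1-203 was at 0.100 and 0.0600 TPM. The coding transcripts together came to 5.82 and 4.91 TPM, or 64.8% and 50.9% of Prrx1, while the transcripts with the 72 bases as an exon of their own came to 3.06 and 4.68 TPM. The bases of that exon also lie within the long last exon of Prrx1-204. Reads inside them can thus belong to any of these 3 transcripts, their division is an estimate of the authors' tables, and the level of the 217-codon form is bounded here only by its interval.

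**Figure D3:**
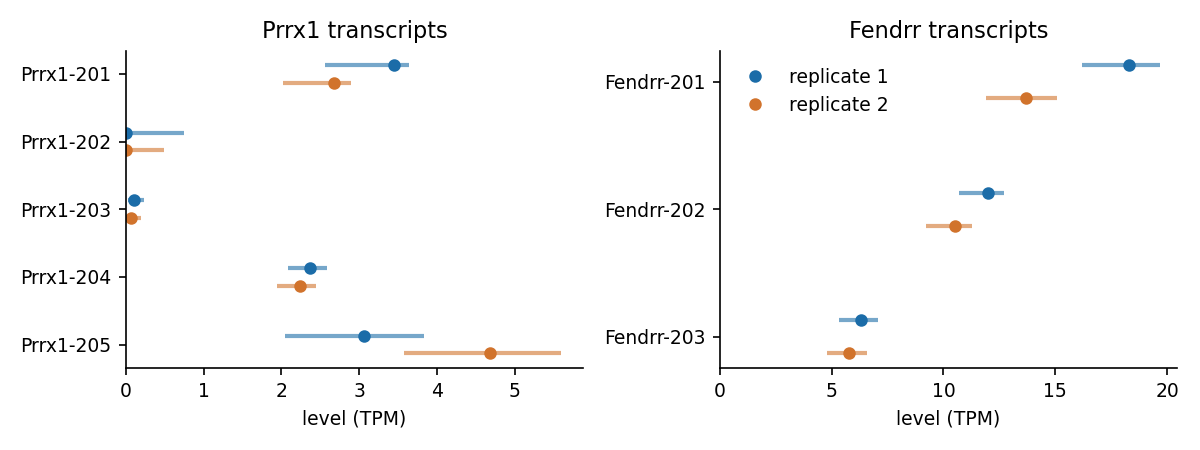
Level in TPM of each transcript of Prrx1 (left) and Fendrr (right) in both libraries, with a point for each library and a line for its deposited interval. The intervals of Fendrr-201 do not overlap between the libraries, and Prrx1-205 is the only Prrx1 transcript shown with a higher value in replicate 2.

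**Figure D4:**
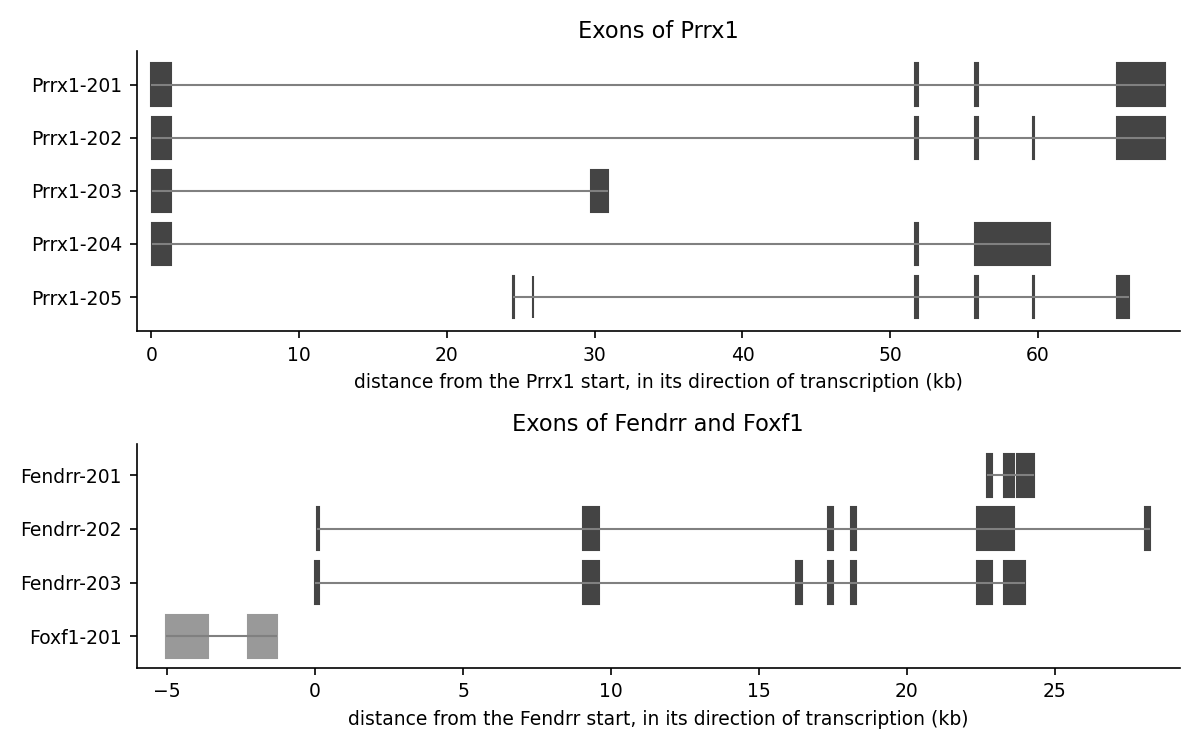
Exons of the transcripts of Prrx1 (top) and of Fendrr and Foxf1 (bottom) as boxes, placed by distance in kb from the gene's start in its direction of transcription, with introns as lines. Fendrr-201 begins 22697 bases after the Fendrr start, near which the other Fendrr transcripts begin, and Prrx1-205 begins 24486 bases after the Prrx1 start.

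Between the libraries none of the 8 genes differed 2-fold. For this comparison the levels of replicate 2 were scaled by the trimmed mean of M values (TMM), which shifts them by 0.07 on the log2 scale. A gene was called apart where its mean was at least 5 TPM, its scaled level differed 2-fold or more and its intervals did not overlap. None of the 7 members with a mean of at least 5 TPM was apart (0 of 7), against 0.355% of 11261 genes, or 40 genes. Without the 2-fold minimum, 1 of the 7, Fendrr, had intervals that did not overlap, against 13.5% of the 11261 genes in either direction. Those that were in addition higher in replicate 1, as Fendrr was, made up 4.32% of the same 11261 genes. Before scaling 3 of the 7 did, namely Tcf21, Fendrr and Meox2, against 17.4% of genes. Over 7 genes, counts of 0 and 1 are near the background.

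The log2 ratio of replicate 2 over replicate 1 after scaling was -0.21 for Fendrr, -0.13 for Meox2, -0.02 for Twist1 and -0.01 for Tcf21. It was 0.08 for Meox1, 0.14 for Osr1, 0.18 for Prrx1 and 0.19 for Twist2. The signs were thus evenly divided, with 4 of the 8 lower in replicate 2. Among 4838 genes within 2-fold of the mean level of Fendrr, the 5th and 95th percentiles of the ratio were -0.19 and 0.19, and 3.76% of these genes had a lower ratio than Fendrr. For Twist1 the percentiles over 3340 genes of like level were -1.26 and 1.01, so that a low gene could differ far more between these libraries than Twist1 did. The ratio of Prrx1 was -0.04 when reads were not divided by the effective length, so its direction also rests on that division. Without it the ratio of Fendrr was -0.17, no longer below the 5th percentile of -0.19, which was itself computed with the division.

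**Figure D5:**
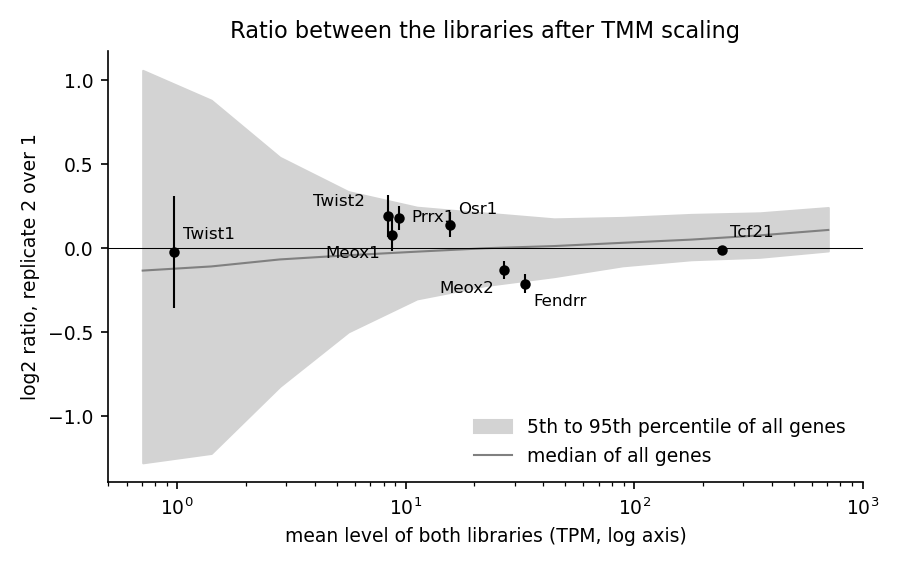
Log2 ratio of replicate 2 over replicate 1 after TMM scaling against the mean level in TPM (log axis), with a point for each of the 8 genes, a line for the standard deviation that counting alone gives, and a grey band from the 5th to the 95th percentile of all genes. Fendrr, at -0.21, sits just below the band, and the other 7 genes lie inside it.

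Markers of mesenchyme were present at high levels in both pools, and some neighbouring organs differed between them. All 12 fibroblast and matrix markers were detected, with medians of 142 and 118 TPM, and of 25 regulators listed for lung mesenchyme 24 were, with medians of 34.2 and 31.3 TPM. Tcf21 stood above each of these 25, of which Foxf1 was the highest by mean level, though below Snai2 (132 TPM) in replicate 1. The lowest was Barx1, at 0.760 and 0.380 TPM, below the value of Twist1 in each library, with intervals that overlapped those of Twist1 in replicate 1. Lung epithelium (8 of 8 detected, medians 164 and 139 TPM), endothelium (8 of 8, 62.7 and 58.9), smooth muscle (6 of 6, 71.4 and 77.7), mesothelium (7 of 7, 14.6 and 10.8) and blood markers (7 of 7, 6305.5 and 7015.1) were present as well. The members are not specific to lung, and no cell type can be assigned to their reads from bulk RNA.

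Of the tissues beside the lung, heart muscle markers (8 of 8 detected) summed to 1539.3 TPM in replicate 1 and 980 TPM in replicate 2, with 3 genes at least 2-fold higher in replicate 1 and 1 in replicate 2. Thymus markers summed to 62.2 and 14.7 TPM, with 7 of 7 at least 2-fold higher in replicate 1. Liver markers summed to 33.2 and 155 TPM, with 7 of 7 at least 2-fold higher in replicate 2. The 2-fold counts of these lists use scaled levels and include genes below the detection minimum. Of the 14583 genes detected in both libraries, 99 were at least 2-fold higher in replicate 1 and 70 in replicate 2. Oesophagus markers (5 of 5 detected) summed to 84.9 and 61.5 TPM, with 1 at least 2-fold higher in replicate 1. Skeletal muscle markers (4 of 11) summed to 64.4 and 79.0 TPM. Of these, 5 were at least 2-fold higher in replicate 2 and 2 in replicate 1, some from few reads. Cartilage and limb markers (3 of 8) summed to 38.8 and 32.1 TPM, with 2 at least 2-fold higher in replicate 1. These were Matn1 (26.0 and 10.0 reads) and Lmx1b (9.00 and 2.00 reads), both below the detection minimum. No marker of these lists was without reads in both libraries. Before scaling, the sums of the fibroblast (5306.8 and 4926.9 TPM) and epithelium lists (7899.4 and 6796.8 TPM) were lower in replicate 2. So were those of endothelium (493 and 473 TPM) and mesothelium (321 and 289 TPM). Smooth muscle (1065.8 and 1217.8 TPM) and blood sums (41044.3 and 44352.5 TPM) were higher. After TMM scaling, the median log2 ratio was -0.04 for fibroblast, -0.04 for epithelium, -0.03 for endothelium and -0.25 for mesothelium markers. It was 0.26 for smooth muscle and 0.18 for blood. Sftpc, at 6881.1 and 5863.6 TPM, held most of the epithelium sum. The part of any of these tissues in the members' values was not tested.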

How the data were processed

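The 8 genes and the gene lists were chosen with earlier results of these data known. Total RNA of 2 libraries, each from its own pool of embryos, is described. A single group of 2 has no contrast, so no p-value was computed.

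For each library the authors deposited a gene table and a transcript table. Per the file headers these hold expected counts, the number of reads estimated for a feature, which can be fractional. The deposited TPM are levels per effective length, scaled over all features with spike-in sequences included, per the file headers. The deposited FPKM, per fragment and kilobase, served as an alternative. The deposited percent is the share of a gene's TPM held by a transcript. The deposited bounds of the TPM interval were treated as a score of unknown level. Build mm10 and annotation GENCODE M4 are named in text deposited with the libraries. The program that made them is not given in the sources used here, nor is whether counting used strand. Molecules over 200 nt were kept and 10 ng of RNA entered each library, per the labels' protocols.

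Names, positions and exons came from GENCODE M21 on GRCm38, matched for 97.96% of identifiers; 884 were unmatched. Positions are 1-based. Expected counts were rounded for TMM (edgeR 4.0.16, R 4.3.3), whose factors were 1.01 and 0.989, and for DESeq2 1.42.0 size factors, an alternative. Replicate 2 was compared with replicate 1 on TMM-scaled TPM with no pseudocount. Counting intervals are exact Poisson intervals, and those of ratios exact Clopper-Pearson intervals, at 95%; they and the floor of 3 reads cover counting error only. The rule that calls genes apart was tried on simulated Poisson counts with known changes and with Poisson intervals. That run held no spread between pools and did not use the deposited intervals. All 8 genes are named; of other lists, the highest, the lowest and any 2-fold different between libraries, up to 4, were to be named, and of transcripts the leading ones and those holding 10% or more in both libraries, with others named for their exons. Alternatives were the posterior mean, other scalings, minima, folds and intervals, and leaving out each replicate.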

Additional observations from a re-analysis of the deposited data

How the results depend on the processing

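Alternatives changed the values without reversing a called result. The number of genes detected was 7 of 8 at the minimum of 1 TPM, 8 at 0.5 TPM, 7 at 2 and at 5 TPM and 4 at 10 TPM, and it ranged from 7 to 8 when each replicate was left out in turn, replicate 2 being the library in which Twist1 missed the minimum. None of the 8 genes was apart between the libraries under DESeq2 size factors, no scaling, lower minima, a 1.5-fold minimum or an exact binomial test of reads. Each of these, the binomial test included, kept a minimum of 1.5-fold or 2-fold. The log2 ratio of largest size among the members, that of Fendrr, was -0.21 after scaling and -0.29 before. None of these alternatives could therefore have called a member. When the intervals alone decided, an alternative chosen after seeing the data, 1 gene, Fendrr, was apart. Over all genes the number apart was 40 with the TMM scaling and with DESeq2 size factors, 42 with no scaling, 157 at a minimum mean of 1 TPM, 320 with no minimum, 81 at 1.5-fold, 59 by the binomial test and 1523 by intervals alone. Of 88 other values for single genes, 74 moved by less than their error and 14 by more, the error being the SD between replicates for a mean level and the SD of counting for a log2 ratio, and leaving out 1 of 2 libraries cannot move a mean beyond that spread. Among the 14 were the mean levels of 7 genes after leaving out globin and mitochondrial genes, which raised Tcf21 to 275 TPM, and the log2 ratio of Prrx1, -0.04 when reads were not divided by effective length, which was also chosen after seeing the data. Twist1, with 40.0 and 35.0 reads, is the gene most limited by depth. No paired analysis was possible because the 2 libraries form 1 group.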

Other observations

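Of the heart muscle markers, all but Myl2 were lower in replicate 2, between the pools in which Fendrr and the other genes were measured. The median log2 ratio over the list was -0.67 after scaling. The atrial gene Myl7, a myosin light chain, was at 609 TPM in replicate 1 and 228 TPM in replicate 2, and Nppa, which encodes an atrial peptide hormone, at 132 and 60.5 TPM. Myl2, the ventricular myosin light chain, was at 25.8 and 119 TPM, the opposite direction. Myh6, a myosin heavy chain of heart muscle, was at 80.3 and 29.9 TPM. The remaining markers, Nkx2-5, Tnnt2, Tnni3 and Actc1, had log2 ratios of -0.88, -0.21, -0.46 and -0.27 after scaling.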
